A study of Caenorhabditis elegans with 52 samples.

Results

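Nucleosomes of *prde-1* mutant and wild-type germ nuclei of *C. elegans* were compared by native H3 ChIP-seq, in which unfixed chromatin is precipitated with an antibody to histone H3 and sequenced, in the preparation that ended with a low-salt wash (150 mM NaCl). The mutant was *prde-1(mj207)*, strain SX2499, an N2-backcrossed line that becomes progressively sterile, and the wild type was VC2010, so the mutation cannot be told apart from other differences between the strains. Both were labelled as young adults and were collected when most animals carried a few embryos. This was some hours later for *prde-1* than for wild type, so age cannot be told apart from genotype either. Nuclei were freed from whole worms with a Dounce homogenizer and filtered, and chromatin was cut with micrococcal nuclease. Of the 52 samples in the series, 8 belong to this comparison, which are 2 H3 samples and 2 inputs for each genotype. The authors merged the 2 samples of a genotype before they called nucleosomes, so each nucleosome has 1 value per genotype, no difference has a replicate check, and no test was made. All 545572 nucleosomes listed for the 5 autosomes and chromosome X entered. The summit occupancy of a nucleosome is H3 minus input signal at its highest point. *Drosophila* chromatin was added as a spike-in, but the deposited values are scaled to one total, so they show where H3 lies along the genome and not how much there is. Fewer nuclei of a type and less H3 per nucleus cannot be told apart in such bulk samples. The markers of the isolated nuclei could not be checked, since H3 occupancy does not measure expression.

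A nucleosome is DNA wrapped around a histone core, and its centre is the dyad. Piwi-interacting RNAs (piRNAs) of *C. elegans* begin with U, are 21 nucleotides long and guide the Argonaute PRG-1 to foreign transcripts in the germ line. Each Type-I piRNA has its own small gene, and these genes crowd into clusters on chromosome IV, many with an upstream element named the Ruby motif. PRDE-1 acts with SNPC-4, TOFU-4 and TOFU-5 in the upstream sequence transcription complex (USTC), which binds the clusters and is needed to transcribe Type-I piRNAs. Type-II piRNAs arise at promoters of other genes and have no Ruby motif. piRNA domains were taken here as runs of windows of chromosome IV rich in annotated piRNA genes. Domain 1 (IV:4800001-7000000, 2807 piRNA genes) spans 2.2 Mb and domain 2 (IV:13500001-17300000, 11534 piRNA genes) 3.8 Mb, and together they hold 33529 of the nucleosomes.

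The sites below show the Ruby core, CTGTTTCA, upstream of piRNA genes named by the size of the change at their upstream nucleosomes (5 of the falls and 2 of the rises). They are read 5′ to 3′ on the strand of the piRNA gene from the RefSeq sequence of WBcel235 (ce11). Capitals mark the best match to the core 20 to 60 bases upstream of the annotated 5′ end, and positions in the core are counted from 1 at its 5′ end, with the base of the core first.
21ur-3918, exact core, chrIV:16133473-16133502, plus strand: tttcgCTGTTTCAacatggttattgatttt
21ur-4133, A8G, chrIV:16133292-16133321, minus strand: aattaCTGTTTCGatgaatttataaaaact
21ur-4305, exact core, chrIV:16029872-16029901, plus strand: aattaCTGTTTCAaaaagttagtataaaaa
21ur-14731, exact core, chrIV:7094146-7094175, plus strand: ttttaCTGTTTCAcacttgttatatgaatt
21ur-9462, A8T, chrIV:10541084-10541113, minus strand: aatttCTGTTTCTcaatatttttaagttgg
21ur-66, exact core, chrIV:14979609-14979638, plus strand: gtttaCTGTTTCAtcatatttttagatatt
21ur-7957, T2C, chrIV:16985082-16985111, plus strand: tattgCCGTTTCActggttacgttttggaa
An exact core lay in this window, on the gene's own strand, for 5005 of 14341 piRNA genes of the domains (34.9%), for 88 of 373 elsewhere on chromosome IV (23.6%) and for 43 of 649 on the other chromosomes (6.63%). Of 19973 protein-coding genes, 36 had it in the same window (0.18%). A match is a description of the letters and not of binding. The core began most often 46 bases upstream of the 5′ end, in 33.9% of the 5136 genes with an exact match.

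The 2 low-salt libraries had like overall values. Mean summit occupancy was 171.2 in *prde-1* and 173.1 in wild type, 19.9% of nucleosomes in *prde-1* and 19.0% in wild type were at 0, and 3.73% were at 0 in both. The strongest nucleosomes were distributed differently. *prde-1* had 2866 nucleosomes of occupancy 1000 or more, of which 75 lay in the domains (2.62%), whereas wild type had 3517, of which 1278 lay in the domains (36.3%). The domains held 5.69% of all summed occupancy in *prde-1* and 10.2% in wild type. Outside them the nucleosome at the 99th percentile had 859 in *prde-1* and 804 in wild type, while inside it had 719.9 in *prde-1* and 1477 in wild type.

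Single nucleosomes varied widely between the libraries across the whole genome. Changes are given as log2 of *prde-1* over wild-type summit occupancy, each with 1 added. Among the 424658 nucleosomes with a mean occupancy of both libraries of at least 50, 121675 were lower in *prde-1* by 2-fold or more (28.7%) and 118518 were higher (27.9%). Outside the domains the 2 directions were near balance, with 108599 lower (27.4%) and 113930 higher (28.7%), and inside they were not, with 13076 lower (46.3%) and 4588 higher (16.2%). The width of this spread outside the domains depended on occupancy. A fall of 2-fold or more was seen at 41.2% of nucleosomes with a mean occupancy of 50 to 100 and at 4.75% of those at 800 or more. In the domains it was seen at 49.5% and 68.7% in the same classes. The 633 domain nucleosomes at 800 or more had a median of 438 in *prde-1* and 1469 in wild type (change -1.79), while the 4780 outside had 1013 in *prde-1* and 952 in wild type (0.09). As the classes use the mean of the 2 compared libraries, a nucleosome can enter a high class through 1 high library alone. Where wild type is higher, as in the domains, the changes of the high classes therefore depend in part on the classes themselves.

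Averaged over 100-kb windows, the spread outside the domains was narrow and every domain window was lower in *prde-1*. Of the 1001 windows with at least 200 nucleosomes, 59 had a log2 ratio of mean occupancy of -0.25 or lower (5.89%) and 11 had 0.25 or higher (1.1%). All 60 domain windows lay below 0, between -1.28 and -0.13, with a median of -0.88, and 58 of them were at -0.25 or lower. The 941 other windows ranged from -0.26 to 0.43 with a median of 0.04 and an SD of 0.096 among windows, and only 1 was at -0.25 or lower. In domain 2 the window means had a median of 169.9 in *prde-1* (126 to 224) and 338 in wild type (218 to 413). In domain 1 they had a median of 138 in *prde-1* (114.5 to 179) and 209 in wild type (143 to 281). Windows outside had a median of 156 in *prde-1* and 154 in wild type, with ranges of 88.0 to 867 in *prde-1* and 89.2 to 842 in wild type that held the domain windows of the same library. In wild type, however, the 95th percentile of the windows outside was 254.6, below the 5th percentile of the domain 2 windows, 281.9.

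**Figure D1:**
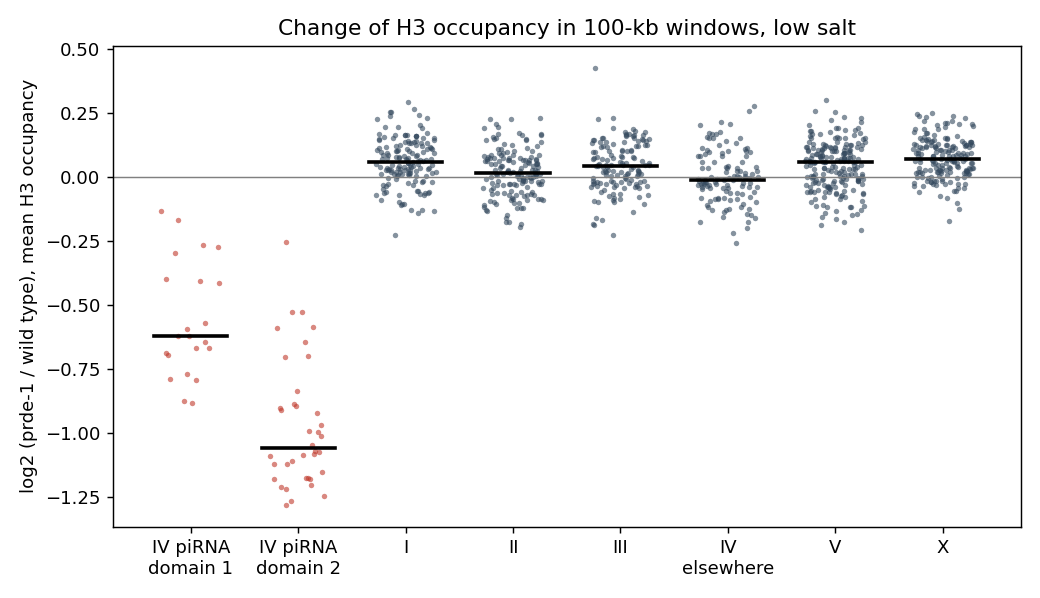
Log2 ratio of mean H3 summit occupancy, *prde-1* over wild type at low salt, for each 100-kb window (1 point each, spread sideways for visibility) in the piRNA domains and on each chromosome outside them, with horizontal bars at the medians. The medians of domains 1 and 2 are -0.62 and -1.06, and the 941 windows outside lie between -0.26 and 0.43.

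Outside the domains, the windows of *prde-1* and wild type spread less than those of other pairs of libraries. With each window taken as its share of the total outside the domains, the SD of the log2 ratio over the 941 windows was 0.096 for *prde-1* over wild type, 0.155 for an ethanol control over the same wild type, and 0.132 for *prde-1* over wild type after the high-salt wash (500 mM NaCl). The ethanol control is strain YL701, in which ISW-1, a chromatin remodelling ATPase, carries eGFP and an auxin-inducible degron (AID) and a germline *mex-5* promoter drives TIR1. Its 2 merged low-salt samples had 3 h of ethanol, the solvent of auxin. In the domain windows the same ratio had a median of -0.94 for *prde-1* (-1.34 to -0.19) and -0.08 for the ethanol control (-0.25 to 0.22). The low-salt comparisons share the wild-type library. The table of the ISW-1 strain is not named as GC corrected, and the part of that in these values was not tested. The high-salt libraries are separate samples, whose genotypes were taken from the titles, which the strain field matches, because the genotype field names the other genotype. Low-salt and high-salt changes of the 60 domain windows were correlated across windows (r = 0.95), those of the other 941 weakly (r = 0.34, same sign in 617), and windows are not replicates.

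Chromosomes outside the domains differed little. The log2 ratio of mean occupancy, *prde-1* over wild type, was 0.08 on X, 0.07 on I, 0.06 on III and V, 0.03 on II and 0.02 on the rest of IV, against 0.05 for all nucleosomes outside the domains, whose mean was 172.1 in *prde-1* and 165.6 in wild type. A lower share in the domains goes with a higher share elsewhere by construction, because the values are scaled to one total. Chromosome X had lower occupancy than the autosomes in both libraries, with a median of 98.8 in *prde-1* and 95.7 in wild type on X, and 127.1 in *prde-1* and 126.3 in wild type on the autosomes. The outer parts of the chromosomes, which hold the arms, had a log2 ratio of means of 0.07, and the middle parts 0.01.

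The windows at the ends of the distribution outside the domains were few. The lowest was IV:7400001-7500000, at 124.6 in *prde-1* and 149.1 in wild type (-0.26, and -0.13 at high salt), which holds *egl-19*, a calcium channel subunit. It was followed by III:6300001-6400000 (156.0 in *prde-1*, 182.6 in wild type, -0.23), I:7000001-7100000 (173.7 in *prde-1*, 203.3 in wild type, -0.23) and IV:13000001-13100000 (132.9 in *prde-1*, 154.7 in wild type, -0.22), whose high-salt changes were -0.04, 0.12 and -0.04. The highest was III:2900001-3000000, which holds the insulin receptor gene *daf-2*, at 366.8 in *prde-1* and 272.5 in wild type (0.43, and 0.43 at high salt). V:20200001-20300000 followed at 277.6 in *prde-1* and 225.0 in wild type (0.30, high salt 0.21). I:14300001-14400000 had 214.0 in *prde-1* and 174.2 in wild type (0.30, high salt 0.03), and IV:900001-1000000, with a group of *fbxc* F-box genes, had 246.7 in *prde-1* and 203.2 in wild type (0.28, high salt 0.42).

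Inside the domains the fall followed the piRNA genes. Over the 60 windows, the number of annotated piRNA genes was correlated with the change (r = -0.88, rho = -0.88) and with the wild-type mean (r = 0.88, rho = 0.90), but weakly with the *prde-1* mean (r = 0.24, rho = 0.32). The lowest window, IV:14900001-15000000, holds 423 piRNA genes and had 145.4 in *prde-1* and 354.6 in wild type (-1.28). The domain windows that fell least were IV:6800001-6900000 with 48 piRNA genes (130.7 in *prde-1*, 143.3 in wild type, -0.13), IV:6700001-6800000 with 17 (178.5 in *prde-1*, 200.5 in wild type, -0.17) and IV:13500001-13600000 with 24 (182.6 in *prde-1*, 217.7 in wild type, -0.25). In 10-kb windows of the domains, nucleosomes had a median change of -0.08 in the 62 windows with no piRNA gene, -0.13 in the 112 with 1 to 9, -0.71 in the 192 with 10 to 29, -1.17 in the 224 with 30 to 59 and -1.26 in the 10 with 60 or more. The median occupancy in these classes was 160, 103, 107, 124 and 139 in *prde-1*, and 173, 127, 179, 277 and 324 in wild type. From the class of 1 to 9 genes upwards, medians were ordered by the number of genes in both libraries, over a range of 103 to 139 in *prde-1* and 127 to 324 in wild type.

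**Figure D2:**
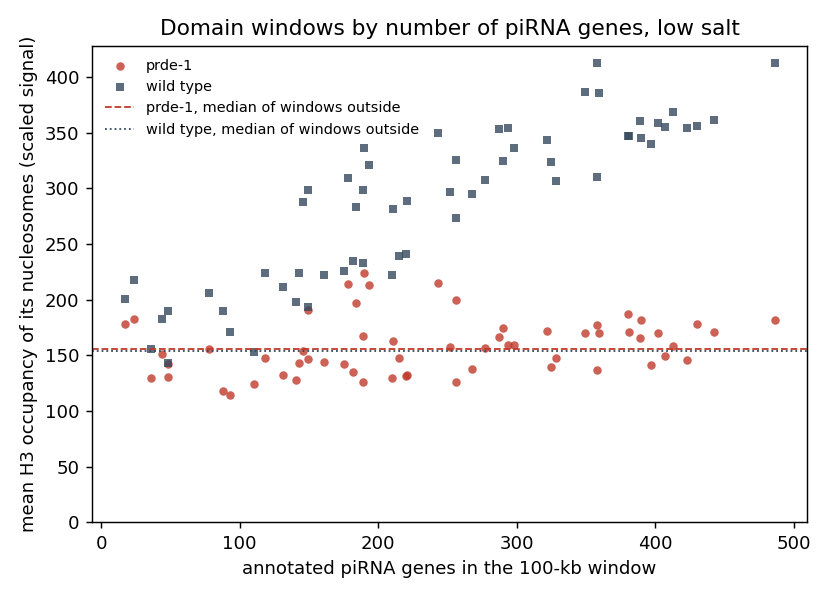
Mean H3 summit occupancy (scaled signal) of each of the 60 domain windows of 100 kb at low salt, circles for *prde-1* and squares for wild type, by the number of annotated piRNA genes in the window, with the median of the windows outside as horizontal lines (156 in *prde-1*, 154 in wild type). The *prde-1* points stay between 114.5 and 224, while the wild-type points climb with the number of piRNA genes to 413.

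The change was steep at the scale of single piRNA genes. Domain nucleosomes with a piRNA 5′ end within 100 bp had a median of 122 in *prde-1* and 282 in wild type (-1.22), and those at 100 to 200 bp had 128 in *prde-1* and 300.5 in wild type (-1.30). At 200 to 400 bp the medians were 96.8 in *prde-1* and 147.4 in wild type (-0.48), and at 600 to 1000 bp 97.6 in *prde-1* and 126 in wild type (-0.17). The 3422 domain nucleosomes at 5 kb or more had 156 in *prde-1* and 170.0 in wild type (-0.05). The borders differed. At the left end of domain 2, the first 50 kb inside, with 4 piRNA genes, had a log2 ratio of means of -0.14, the next, with 20 genes, -0.47, and the next, with 113 genes, -1.04, while the 50 kb just outside had 0.08. At its right end the last 50 kb inside had -0.62 with 9 piRNA genes, and the 50 kb just outside -0.04. At the left end of domain 1, the first 4 stretches of 50 kb inside had -0.53, -0.27, -0.38 and -0.23 with 64, 85, 51 and 59 genes, and the 50 kb just outside -0.07, so the change of such stretches did not always follow their number of genes.

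**Figure D3:**
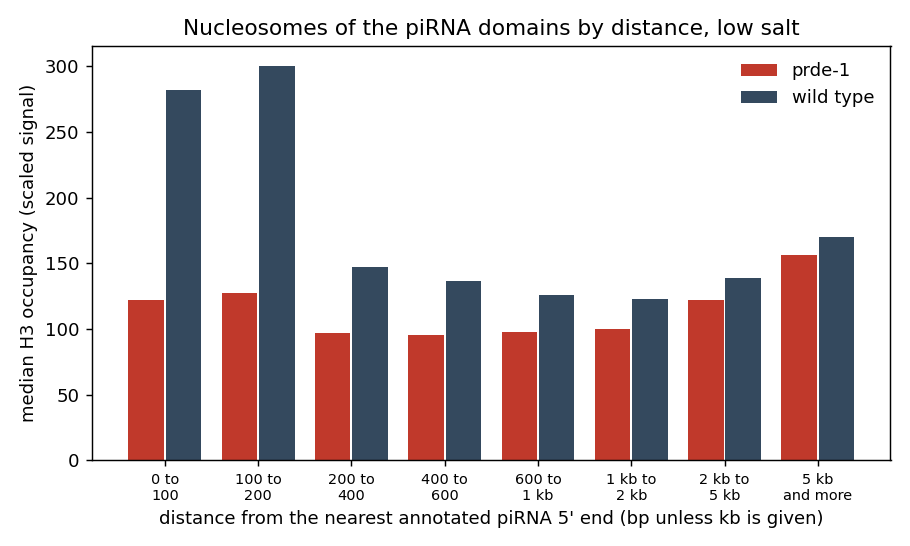
Median H3 summit occupancy (scaled signal) of domain nucleosomes in *prde-1* and wild type at low salt, 1 pair of bars for each class of distance to the nearest annotated piRNA 5′ end. Within 100 bp the bars stand at 122 in *prde-1* and 282 in wild type, and at 5 kb or more at 156 in *prde-1* and 170.0 in wild type.

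Where a nucleosome lay relative to protein-coding genes mattered less than its distance to a piRNA gene. Median changes in the domains were -0.84 between genes, -0.75 in introns, -0.60 within 500 bp upstream of protein-coding genes and -0.55 in exons. Among domain nucleosomes with no piRNA 5′ end within 1 kb they were -0.01, 0.00, -0.13 and -0.20 in the same order, and outside the domains 0.01, 0.03, 0.00 and 0.00. Base composition differed as well. Median GC content was 32.0% in the domains and 35.4% outside, and the authors corrected the reads for GC. With all nucleosomes split into 5 equal classes of GC content, the median change in the domains was -1.001 in the lowest class and -0.46 in the highest, and outside it was 0.20 in the lowest and -0.05 in the highest.

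The upstream nucleosome of a piRNA gene was taken as the nearest dyad within 200 bp upstream of its 5′ end. Its fall was ordered by the match to the Ruby core. In the domains, genes with an exact core (4884 of 5005 had such a nucleosome) had a median of 128 in *prde-1* and 506 in wild type, a change of -1.999 (95% interval over genes -2.08 to -1.93). Genes with 1 mismatch (5915 of 6165) had 129 in *prde-1* and 361 in wild type (-1.57, -1.64 to -1.50), and those with 2 or more (2980 of 3171) had 133 in *prde-1* and 272 in wild type (-1.02, -1.13 to -0.91). The 3 classes thus differed in wild type and had nearly the same level in *prde-1*. After the high-salt wash the medians of the 3 classes were 102, 102 and 102 in *prde-1* and 1029, 544 and 314 in wild type. Neighbouring genes can share a nucleosome, and with each nucleosome counted once in a class (3570, 4157 and 2329 nucleosomes) the low-salt changes were -1.99, -1.54 and -1.04.

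The medians had the same order on chromosome IV outside the domains and another order on the other chromosomes. On IV outside the domains, the 85 genes with an exact core had 104 in *prde-1* and 213 in wild type (-1.14, -1.56 to -0.43), and the change was -0.24 with 1 mismatch and -0.10 with 2 or more. On the other chromosomes, the 37 measured genes with an exact core had 222 in *prde-1* and 175 in wild type (0.38, 0.01 to 0.73), and all 567 measured genes had 122 in *prde-1* and 102 in wild type (0.15). The log2 ratio of means of the 37 was only 0.08. Of the 31 among them with a mean of at least 50, 7 fell and 7 rose by 2-fold or more. The core away from piRNA genes was also examined on both strands. In the domains, 155 matches had no annotated piRNA 5′ end within 1 kb, and the 84 with a dyad within 160 bp upstream had 102 in *prde-1* and 190 in wild type (-1.27, -2.06 to -0.63). Outside the domains, 4346 of 5537 such matches had a dyad, with 110.2 in *prde-1* and 114 in wild type (0.00, -0.03 to 0.00).

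Dyad profiles around the 5′ ends were flatter in *prde-1*. Summed occupancy per gene in 20-bp bins peaked upstream of exact-core genes at 25.7 in *prde-1* (160 to 141 bp upstream) and 231 in wild type (140 to 121 bp upstream). This was 1.43 times the mean of the flanking bins in *prde-1* and 5.68 times in wild type. Wild type had a low of 7.60 at 60 to 41 bp upstream and a downstream peak of 81.8 at 40 to 59 bp, while *prde-1* had a downstream peak of 23.0. With 1 mismatch the upstream peak was 26.6 in *prde-1* and 139 in wild type, and with 2 or more it was 29.4 in *prde-1* and 67.6 in wild type. The flanks, 500 to 301 bp upstream, also fell at exact-core genes, with 178 in *prde-1* and 420 in wild type. Within 200 bp upstream of protein-coding genes outside the domains, the highest bin had 22.3 in *prde-1* and 23.2 in wild type. Farther out, at 240 to 221 bp upstream, *prde-1* had 22.2 and wild type 24.6.

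**Figure D4:**
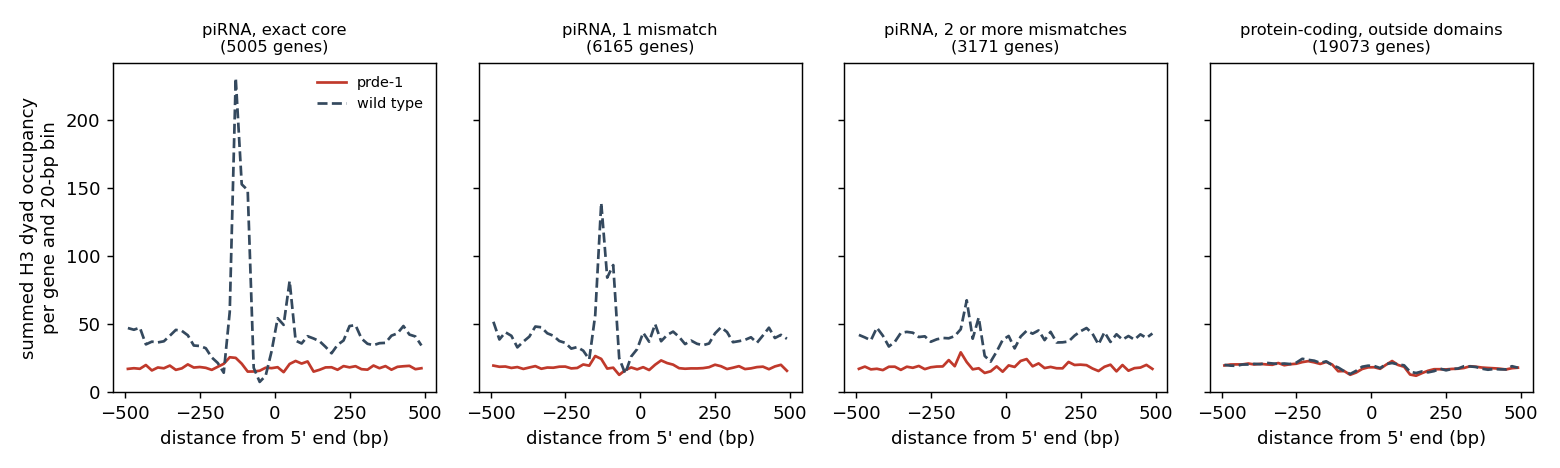
Summed H3 summit occupancy per gene in 20-bp bins by distance in bp from the annotated 5′ end, *prde-1* (solid) and wild type (dashed) at low salt, for piRNA genes of the domains by Ruby class and for protein-coding genes elsewhere. The upstream peaks of the 3 Ruby classes are 25.7, 26.6 and 29.4 in *prde-1*, against 231, 139 and 67.6 in wild type.

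The piRNA genes with the most extreme upstream nucleosomes were named among those with a mean occupancy above the median of their class. The largest falls were nucleosomes listed at 0 in *prde-1*. 21ur-3918 and 21ur-4133, which are transcribed away from each other, share 1 nucleosome in an intron of *hlh-32*, a basic helix-loop-helix gene, with 0 in *prde-1* and 2922 in wild type at low salt and 89.5 in *prde-1* and 4470 in wild type at high salt. 21ur-4305 overlaps 21ur-7780, whose 5′ end is 1 base away, and both have the nucleosome at dyad 16029799, with 0 in *prde-1* and 2835 in wild type at low salt and 90.2 in *prde-1* and 4369 in wild type at high salt. Outside the domains, 21ur-14731 in an intron of *deb-1*, the vinculin gene, had 0 in *prde-1* and 850.0 in wild type (25.9 and 1993 at high salt). 21ur-9462 had 0 in *prde-1* and 582 in wild type (0 and 1556 at high salt), and 21ur-11723 on X had 0 in *prde-1* and 547 in wild type (140 and 336 at high salt). A log2 change against 0 depends on the added 1, so levels are given. All 7 of these genes, some of which share a nucleosome, were lower in *prde-1* at high salt too. Over all measured piRNA genes, the upstream nucleosome was lower at high salt for 84.7% in the domains and 62.6% elsewhere on chromosome IV.

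The largest rises did not recur in most cases. In the domains, 21ur-2968 had 602 in *prde-1* and 0 in wild type at low salt but 0 in *prde-1* and 55.8 in wild type at high salt. 21ur-66, with an exact core, had 534 in *prde-1* and 13.4 in wild type at low salt and 0 in *prde-1* and 509 in wild type at high salt. 21ur-7957 had 611 in *prde-1* and 6.32 in wild type at low salt and 357 in *prde-1* and 505 in wild type at high salt. 21ur-12681 was higher in *prde-1* in both washes, at 555 in *prde-1* and 0 in wild type at low salt and 256 in *prde-1* and 0 in wild type at high salt. The dyads of 21ur-7957 and 21ur-66 lay 21 and 15 bp upstream of the 5′ end. Outside the domains, 21ur-14772 on II had 458 in *prde-1* and 0 in wild type (246 and 0 at high salt), 21ur-14649 in an exon of *vps-36* on V had 407 in *prde-1* and 0 in wild type (375 and 229 at high salt), and 21ur-7750 on IV had 419.7 in *prde-1* and 0 in wild type (0 and 380.3 at high salt).

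Positions of dyads and the spread of reads around them were also compared. The fuzziness score rises with the spread of reads around a dyad. Where both libraries had an occupancy of 50 or more, the 18688 nucleosomes in the domains had a median score of 35.99 in *prde-1* and 39.3 in wild type (median change -2.50), and the 253970 outside had 36.6 in *prde-1* and 36.2 in wild type (0.26). The score fell by 3.27 at the upstream nucleosomes of domain piRNA genes and by 0.75 in the domains with no piRNA 5′ end within 1 kb. These falls depend on the occupancy limit. Without it the median change was -0.37 over the domains, -0.04 (-0.43 to 0.46) at those upstream nucleosomes and -0.02 away from piRNA genes. Scores were also compared in classes with both libraries in the same range of occupancy, and they had no common trend with occupancy. In wild type the median score fell from class to class as occupancy rose in the domains. Outside the domains it was lowest at 100 to 200 and highest at 400 to 800. Where both libraries were at 50 to 100 the change in the domains was -2.53, and at 100 to 200 it was -4.72. At 200 to 400 it was -3.54 and at 400 to 800 -1.77. Outside the domains the same classes had 0.24, 0.32, 0.40 and 0.75. The dyads of the 2 libraries lay over 40 bp apart at 28.0% of the domain nucleosomes and 25.4% of the others. This share was 31.4% at the upstream nucleosomes of domain piRNA genes and 24.5% in the domains with no piRNA 5′ end within 1 kb. Of all listed distances, 35.6% are 0 and 1.95% are 1 bp, so a 0 need not be a measured distance.

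Neighbouring dyads were spaced more widely in *prde-1* in the domains. Between consecutive dyads with an occupancy of at least 50 that lay 100 to 400 bp apart, the median gap was 198 bp in *prde-1* and 187 bp in wild type (19014 and 24043 pairs, with interquartile ranges of 106 bp and 94 bp). Near piRNA genes, with a 5′ end within 1 kb, it was 200 bp in *prde-1* and 185 bp in wild type, and in the domains away from them 193 bp in *prde-1* and 192 bp in wild type. Outside the domains it was 196 bp in *prde-1* and 197 bp in wild type. A nucleosome under the occupancy limit leaves a wider gap, so the spacing and the occupancy are not separate measures.

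Protein-coding genes were measured by the mean occupancy of the nucleosomes in the gene, for the 11424 genes with at least 10 nucleosomes and a mean of at least 50. Of these, 1257 were lower in *prde-1* by 1.5-fold or more (11%) and 846 were higher (7.41%). In the domains 512 of 900 genes could be measured, of which 287 were lower (56.1%) and 10 higher (1.95%), with a median change of -0.69. Of the 287, 252 were also lower by 1.5-fold or more at high salt, which is 87.8% of the low-salt genes and 85.1% of the high-salt genes. Among all 497 of these domain genes with a high-salt value, 296 were lower by 1.5-fold or more at high salt. Outside the domains, 970 of 10912 were lower (8.89%) and 836 higher (7.66%), with a median of 0.04. Of the 970, 131 were also lower at high salt (13.5% of the low-salt and 18.9% of the high-salt genes), and of the 836, 77 were also higher (9.21% and 7.01%). Among all 10546 of these genes outside with a high-salt value, 692 were lower and 1098 higher by 1.5-fold or more at high salt. The genes higher at low salt were thus not more often higher at high salt than all genes outside.

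Genes of the domains differed by the piRNA genes inside them. The 176 genes with no piRNA 5′ end had a median change of -0.14, and 30 of them were lower by 1.5-fold or more (17.05%). The 109 with 1 to 4 had -0.56, with 52 lower (47.7%). The 227 with 5 or more had medians of 136 in *prde-1* and 313 in wild type, a change of -1.16, with 205 lower (90.3%). The lowest was *oac-48*, an acyltransferase homologue with 15 piRNA 5′ ends, at 78.3 in *prde-1* and 454.8 in wild type (-2.52, high salt -2.82). *Y57G11B.2* had 91.0 in *prde-1* and 468.7 in wild type (-2.35), *noah-2*, a gene of the apical extracellular matrix, 70.6 in *prde-1* and 351.0 in wild type (-2.30), *C31H1.1* 44.2 in *prde-1* and 218.0 in wild type (-2.28), and *ent-4*, a nucleoside transporter gene with 31 piRNA 5′ ends, 107.8 in *prde-1* and 464.4 in wild type (-2.10). All 5 were lower in *prde-1* at high salt, with changes of -1.48 or lower.

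The highest genes of the domains held at most 2 piRNA 5′ ends, and 3 of the 5 went the other way at high salt. *str-158*, a chemoreceptor gene, had 125.9 in *prde-1* and 43.0 in wild type (1.53), *C31H1.5* 105.1 in *prde-1* and 41.96 in wild type (1.30, high salt 1.66), *ZK381.8* 105.4 in *prde-1* and 52.7 in wild type (0.99), *mcu-1*, the mitochondrial calcium uniporter gene, 193.1 in *prde-1* and 109.7 in wild type (0.81), and *C09B9.85* 118.9 in *prde-1* and 69.1 in wild type (0.77). The high-salt changes of *str-158*, *ZK381.8* and *mcu-1* were -1.12, -0.61 and -1.12. *C31H1.1* and *C31H1.5*, which are near neighbours on chromosome IV, thus stood at opposite ends.

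Outside the domains the genes at the extremes were short, with 10 to 13 nucleosomes each. The lowest was *inos-1*, an inositol phosphate synthase gene on II, at 19.6 in *prde-1* and 165.8 in wild type (-3.02, high salt -0.41), followed by the chemoreceptor gene *srt-30* on V at 11.05 in *prde-1* and 91.2 in wild type (-2.94, high salt -1.83), *F41D3.9* (-2.52), *wht-4* (-2.39), *nspg-14* (-2.24), *C56G2.5* (-2.14), *srw-85* (-2.08), *fbxa-214* (-2.01), *srt-7* (-2.01, high salt -1.65) and *Y73C8C.3* (-1.95). All 10 were lower in *prde-1* at high salt as well, with changes between -1.83 and -0.21. The highest was *C17E4.1* on I, at 141.5 in *prde-1* and 30.6 in wild type (2.18, high salt -0.46). It was followed by *pfut-1* on X, an O-fucosyltransferase gene, at 109.9 in *prde-1* and 25.2 in wild type (2.08, high salt -0.19), *C09D4.3* (1.91), *fbxa-51* (1.85), *srr-9* (1.83), *dach-1* (1.80), the homeobox gene *ceh-10* (1.80), *ZC443.1* (1.79, high salt 1.83), *sri-30* (1.79) and *str-151* (1.78). Of these 10, 4 were higher and 6 lower in *prde-1* at high salt.

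Gene lists were compared outside the domains, over genes with at least 3 nucleosomes and a mean of at least 50. All 17325 such protein-coding genes had a median change of 0.02, with 14.7% lower by 1.5-fold or more and 11.8% higher. Of the 65 ribosomal protein genes, which are among the most highly expressed, 31 were lower (47.7%) and 1 was higher, with a median change of -0.56 and median levels of 246 in *prde-1* and 376 in wild type. At high salt their median change was -0.19. Of 142 collagens, cuticle genes of the epidermis, 53 were lower (37.3%) and 22 higher, with a median of -0.30, and -0.06 at high salt. The median GC content was 46.3% for the ribosomal protein genes, 48.9% for the collagens and 36.8% for all protein-coding genes, and its part in these values was not tested. The 6 vitellogenins, yolk genes of the gut, had a median of -0.41, with 2 lower and none higher. The median log2 ratio of the low-salt ethanol control over wild type was -0.40 for the vitellogenins, 0.20 for ribosomal protein genes and 0.04 for collagens. For the vitellogenins, a change of that size thus also occurred between 2 libraries without the mutation. Of 21 histone genes, 7 were lower and 2 higher (-0.11), and as copies of histone genes are near identical, their values are uncertain. Of 1031 serpentine chemoreceptor genes, 184 were lower and 197 higher (0.09), and of 65 more in the domains, 44 were lower. The medians were -0.04 for F-box A genes (277), -0.09 for C-type lectins (205) and 0.06 for nuclear hormone receptors (258).

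Among germline lists, 5 of 20 germline RNA regulators were lower and none higher (median -0.23, high salt 0.17), and 1 of 18 genes of germ granules and small RNA silencing was lower (-0.25). Of 21 genes of the meiotic axis and synaptonemal complex, 2 were lower and 1 higher (0.08). Of 13 synMuv B and chromatin genes, 1 was higher and none lower (0.12), as was 1 of 6 Hox genes (0.14). Ethanol control over wild type at low salt gave medians of -0.17 for the RNA regulators, -0.04 for the germ granule list and -0.20 for the meiotic list. It gave -0.21 for the synMuv B list and 0.20 for the Hox genes. Of 17 genes specific to muscle, neuron or gut, 2 were lower and 1 higher (-0.11), between -0.99 and 0.79, and their median level was 102 in *prde-1* and 118 in wild type. These levels do not show how many nuclei of other tissues a preparation held, and their part in the results was not tested.

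The genes of piRNA transcription and maturation lie outside the domains, and 20 of the 21 listed could be measured, with 4 lower by 1.5-fold or more, none higher and a median of -0.25 (high salt 0.25). Ethanol control over wild type gave a median of -0.09 for these genes. In the USTC, *prde-1* itself had 220.3 in the mutant and 174.1 in wild type (0.34). H3 occupancy of the gene does not check the mutation. *snpc-4* had a change of -0.37, *tofu-4* -0.39 and *tofu-5* 0.51. *prg-1*, which encodes the Piwi Argonaute, had 190.5 in *prde-1* and 394.7 in wild type (-1.05, high salt -0.86). The others past 1.5-fold were *tost-1* (-1.58, high salt 0.12), *tofu-1* (-1.17, high salt 0.46) and *pid-1* (-0.94, high salt 0.95). Their low-salt means rest on 4, 9 and 6 nucleosomes, and all went the other way at high salt. *tofu-1* and *pid-1* act in processing of piRNA precursors. *tofu-6* (0.55), *tofu-2* (0.13), *erh-2* (-0.29), *parn-1* (-0.01), which trims the 3′ end, *henn-1* (-0.31), which methylates it, *isw-1* (-0.09), *tbp-1* (-0.22), *attf-6* (0.22), *uad-2* (-0.42) and the Polycomb genes *mes-2* (-0.29), *mes-3* (0.14) and *mes-6* (0.28) did not pass 1.5-fold.

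Upstream nucleosomes of tRNA, snRNA and snoRNA genes outside the domains had lower medians in *prde-1* than in wild type at low salt. For tRNA genes, transcribed by RNA polymerase III, the 535 of 571 with an upstream nucleosome had a median of 134 in *prde-1* and 194 in wild type (-0.61, -0.78 to -0.43), and 39.8% of those with a mean of at least 50 fell by 2-fold or more and 16.7% rose, where protein-coding genes had 29.5% and 27.1%. For snRNA genes, some of which depend on SNPC-4 as piRNA genes do, 92 of 113 had 131 in *prde-1* and 184 in wild type (-0.40, -0.90 to -0.07), and for snoRNA genes 302 of 329 had 133 in *prde-1* and 179 in wild type (-0.43, -0.59 to -0.23). For miRNA genes the 213 of 242 measured had 82.8 in *prde-1* and 108 in wild type (-0.10, -0.39 to 0.24). For protein-coding genes the 16807 measured had 118 in *prde-1* and 121 in wild type (0.00), and at the 64 measured ribosomal protein genes the change was -0.51. At high salt the median changes were 0.13 for tRNA, 0.55 for snRNA, 0.06 for snoRNA and 0.13 for ribosomal protein genes. The difference between the washes was not tested. The difference at tRNA genes was uneven along the profile. Occupancy per gene summed over 120 to 61 bp upstream was 37.6 in *prde-1* and 90.5 in wild type, and in the bin 180 to 161 bp upstream it was 58.2 in *prde-1* and 58.4 in wild type. Nearest the gene, 40 to 21 bp upstream, it was 6.13 in *prde-1* and 6.94 in wild type, and some bins farther away differed too, such as that 340 to 359 bp downstream with 29.4 in *prde-1* and 55.4 in wild type. Many of these genes have near-identical copies, whose reads could not be assigned with certainty.

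Set against the mean of all nucleosomes outside the domains in the same library, the upstream nucleosomes of tRNA genes stood at 1.00 in *prde-1* and 1.56 in wild type at low salt, and those of the ethanol control, another low-salt library, at 1.48. At high salt they stood at 2.02 in *prde-1* and 1.94 in wild type. For snRNA genes the low-salt multiples were 1.16 in *prde-1*, 1.60 in the ethanol control and 1.64 in wild type, and for ribosomal protein genes 1.81 in *prde-1*, 2.02 in the ethanol control and 2.39 in wild type. For piRNA genes of the domains they were 0.94 in *prde-1*, 2.70 in the ethanol control and 2.91 in wild type, and at high salt 0.76 in *prde-1* and 5.48 in wild type.

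**Figure D5:**
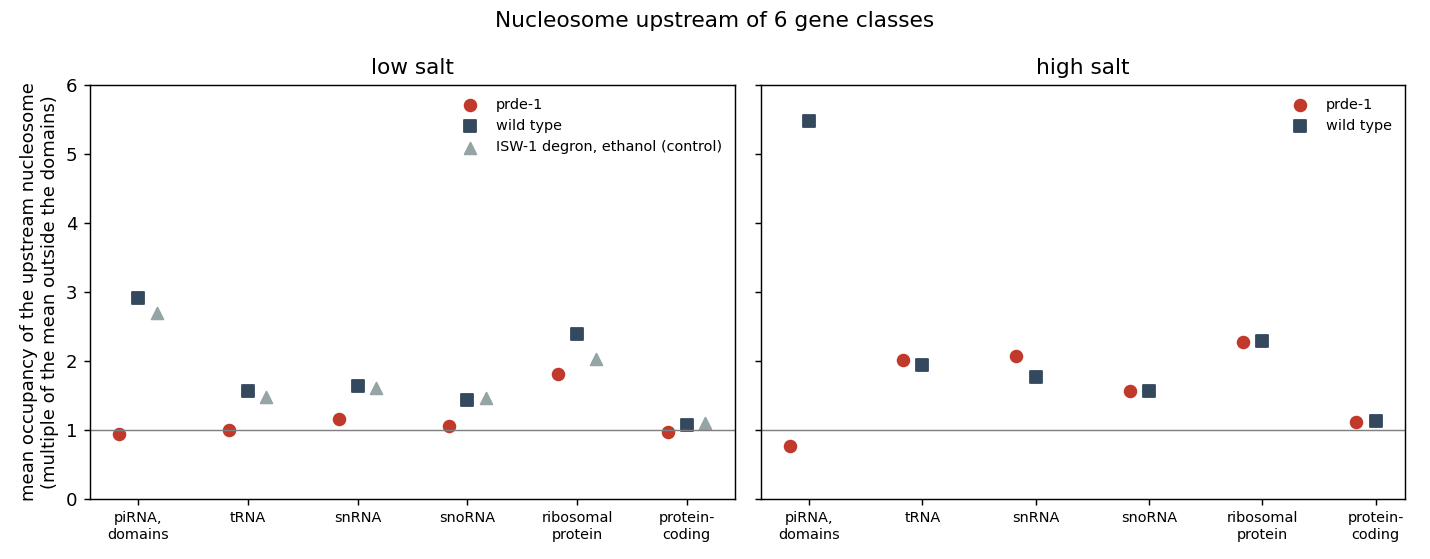
Mean occupancy of upstream nucleosomes by gene class, as a multiple of the mean of all nucleosomes outside the domains in the same library, for *prde-1* and wild type at low and high salt and the low-salt ethanol control. piRNA genes of the domains stand at 0.94 in *prde-1* and 2.91 in wild type at low salt, and tRNA genes at 1.00 in *prde-1* and 1.56 in wild type.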

How the data were processed

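H3 and input samples were grouped by their titles, and the NaCl concentrations of the washes (150 mM low, 500 mM high) were taken from the methods. Reads were aligned by the authors with Bowtie2 to ce11 (the submitters' notes also name MACS2). They kept a mapping quality of at least 30, removed duplicates, downsampled and merged the 2 samples of each group, corrected for GC content, kept mononucleosome-sized fragments and called nucleosomes with DANPOS3 against input. The deposited summit occupancy is a signal that was never below 0, the deposited fuzziness is a score, and dyad positions are in bp. The authors' log2 fold changes, p-values and FDR were not used. Read depth is unknown, and no interval covers it.

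A pseudocount of 1 was added before log2, so that changes of low values are understated. Domains were runs of 100-kb windows with 20 or more piRNA genes, joined where the gap was 300 kb or less, and at least 1 Mb long. Medians have 95% exact binomial intervals, taken over nucleosomes or genes, which are not replicates. Genes were taken from the Ensembl annotation of WBcel235, the assembly of ce11, and positions were checked against its chromosome lengths. Named were the 4 lowest and 4 highest windows outside the domains; the 10 lowest and highest protein-coding genes outside and 5 inside; the 4 piRNA genes with the largest falls and rises inside and 3 outside; and the piRNA pathway list. The 3 lowest and 3 highest domain windows were added after values were seen. The domains, gene sets and lists were chosen with earlier results of these data known. Alternatives covered the pseudocount, occupancy and nucleosome minimums, dyad distance, window sizes, the domain limit and ratios of means. Python 3.11.15, numpy 2.4.6, pandas 2.3.3, scipy 1.17.1 and matplotlib 3.10.9 were used, and the procedures were tested on simulated data.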

Additional observations from a re-analysis of the deposited data

Results flagged for a closer look

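For the values below the low-salt and high-salt comparisons of *prde-1* with wild type went opposite ways. The difference between the washes was not tested, since each library is 1 merged sample. The median log2 change of the list of piRNA transcription and maturation genes was -0.25 at low and 0.25 at high salt, that of germline RNA regulators -0.23 at low and 0.17 at high salt, and that of the Hox genes 0.14 at low and -0.28 at high salt. In the domains, *str-158* had 1.53 at low and -1.12 at high salt, *ZK381.8* 0.99 and -0.61, and *mcu-1* 0.81 and -1.12. The nucleosome upstream of 21ur-2968 changed by 9.24 at low and -5.83 at high salt, that of 21ur-66 by 5.22 and -8.99, and that of 21ur-7750 by 8.72 and -8.57, all with a value at 0 in at least 1 of the libraries, so the size depends on the pseudocount. Upstream nucleosomes outside the domains had median changes of -0.61 at low and 0.13 at high salt for tRNA genes, -0.40 and 0.55 for snRNA genes, and -0.51 and 0.13 for ribosomal protein genes.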

How the results depend on the processing

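No paired analysis was possible because the samples of each group were merged before nucleosomes were called, and leaving out a replicate was not run for the same reason. Of 95 values recomputed under an alternative, 53 stayed within the interval or within 1.5 times of the count, 42 moved and none reversed. Counts, shares and SDs cannot change sign, and a value not beyond its own interval could not be labelled reversed. The absence of reversals therefore says nothing about these values. Chromosome medians of 0 with an interval of no width were labelled moved at any other value. The change in the domains minus that outside was -0.70 with a pseudocount of 10, -0.86 with a mean occupancy of at least 50, -0.91 as a log2 ratio of means and -0.79 with domains of windows with at least 50 piRNA genes. For exact-core and 1-mismatch genes a pseudocount of 10 gave -1.92 and -1.50, and dyads within 40 bp gave -1.65 for 1 mismatch. With a mean occupancy of at least 50, the change relative to the other chromosomes was 0.025 for I, -0.030 for II, -0.046 for the rest of IV, 0.0022 for V and 0.034 for X, outer minus middle parts gave 0.064, and the Ruby core away from piRNA genes outside the domains -0.035. As log2 ratios of means the chromosomes gave 0.021 for I, -0.026 for II, 0.0055 for III, -0.043 for IV, 0.0036 for V and 0.028 for X. The SD over windows outside the domains was 0.0906 with a pseudocount of 10, 0.105 with dyads within 40 bp and 0.122 in 50-kb windows, with 0, 4 and 23 windows at -0.25 or lower and 6, 18 and 74 at 0.25 or higher. A mean occupancy of at least 100 left 2939 nucleosomes higher by 2-fold in the domains, and 67412 lower and 73826 higher outside, because fewer entered. Genes with at least 5 nucleosomes gave 32 higher in the domains and 2104 lower and 1713 higher outside, and dyads within 40 bp gave 5 higher in the domains. Dyads over 40 bp apart were 26.8% in the domains and 23.4% outside where each library had 100 or more, and 30.9% and 27.8% among listed distances above 0. Over 60 bp apart were 11.3% and 10.5%. The listed distances above 0 and the fuzziness without its most frequent score were chosen after seeing the data. Where no cause is given here, the cause was not tested. The limits are 1 merged library per genotype, an unknown read depth and a common total, under which a change of H3 over the whole genome cannot be seen.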

Other observations

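Runs of at least 4 consecutive nucleosomes at 0 in 1 library, with a mean of at least 50 in the other, were counted after the values were seen. In the domains 28 runs were at 0 in *prde-1* and 1 at 0 in wild type. Outside them 185 of 304 runs were at 0 in *prde-1* (60.9%) and the other 39.1% in wild type. Recurrence at high salt was counted for runs whose span held at least 3 high-salt nucleosomes with a mean of at least 50 in the other library. By this rule 5 outside and 3 inside the domains also had at most 10% of the wild-type level in *prde-1* at high salt, and 3 outside had at most 10% of the *prde-1* level in wild type at high salt. The longest of the runs shared by both washes covers 6 nucleosomes in *alh-2*, an aldehyde dehydrogenase gene on chromosome V (1645756 to 1647038), with a mean of 305.2 in *prde-1* and 0 in wild type at low salt and 274.7 in *prde-1* and 0 in wild type at high salt. The low-salt table of the ISW-1 strain lists no nucleosome there. A sequence that a strain lacks and a nucleosome that is absent cannot be told apart from these values. The runs in the domains that recurred lay in *unc-5* (282 in wild type at low salt), in *C08F11.1* (257) and at IV:14927794-14928272 (413), each listed at 0 in *prde-1*. The run in *Y37A1A.3* (IV:13902047-13902413), with 0 in *prde-1* and 915 in wild type at low salt, held only 2 high-salt nucleosomes and was not counted, and their mean was 90.8 in *prde-1* and 3761 in wild type.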
